A study of Mus musculus with 16 samples.

Results

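The immediate early transcription factors described here are Fos, Fosb, Jun, Junb, Jund, Egr1, Nr4a1, Atf3, Ier2 and Klf6. All probe sets that the platform annotation assigns to one of these symbols were taken, which gave 15 probe sets for the 10 genes, of 12422 tested probe sets and 8251 genes named on the chip. All 10 genes were on the chip. Whole inner ears were dissected from newborn (P0) mice of strain 129SvEv, and their RNA was hybridized to 8 Affymetrix MG-U74Av2 chips. Wild-type ears were compared with COUP-TFI-/- ears, which lack the orphan nuclear receptor COUP-TFI, and no mouse received a treatment. The hybridizations were done in 2 sets, A and B, at different times, and each set held 1 RNA pool per genotype on 2 chips (A1 with A2, B1 with B2). Each pool combined the ears of several newborns, so each genotype is represented by 2 pools and 4 chips, and the spread between duplicates is that of the array only. The ears were kept in RNA Later until the genotype of each pup was known.

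Immediate early genes are transcribed within a short time of a stimulus, without prior protein synthesis, when kinase cascades reach factors such as SRF and CREB that already sit on their promoters. Their transcripts are short-lived. Fos and Jun proteins pair through leucine zippers to form AP-1, which binds DNA and drives a second wave of genes, and in the ear AP-1 and Egr factors are best known from responses to noise, toxic drugs and cell stress. COUP-TFI binds direct repeats of the nuclear receptor half-site and can raise or lower transcription.

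The gene that is deleted checks the genotype of each chip. Nr2f1, which encodes COUP-TFI, read 7.74 to 8.83 on the wild-type chips and 4.68 to 5.27 on the COUP-TFI-/- chips on the GCRMA log2 scale, a difference of -3.37 (limma adjusted p = 5.9e-11), and its dChip intensities of 404 to 760 and 39.0 to 66.5 did not overlap either. Of 16 inner ear markers 10 are on the chip, and none of these had a mean dChip intensity under 50. Duplicate chips correlated across probe sets with r of at least 0.996 (GCRMA) and 0.993 (dChip). The log2 difference between the 3' and 5' control probes was 0.13 to 0.33 for Gapdh and 0.68 to 0.82 for Actin on the 8 chips. In bulk tissue, fewer cells of a type and less RNA per cell cannot be told apart.

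The promoters of the 3 members on which the results below turn, Fos, Jun and Klf6, are shown to place these genes beside the letters that the factors above bind. The stretches are 150 bases that end just before the transcription start, taken from RefSeq (GRCm38.p6), and read 5' to 3' on the strand of the gene. Capitals mark the CRE half-site TGACG, the GC box GGGCGG or its reverse complement, the TATA box TATAAA and a variant of the CREB and AP-1 site, TGACATCA.
Fos, chr12:85473740-85473889, plus strand: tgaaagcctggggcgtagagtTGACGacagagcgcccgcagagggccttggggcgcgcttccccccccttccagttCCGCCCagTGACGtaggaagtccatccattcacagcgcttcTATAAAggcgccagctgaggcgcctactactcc
Jun, chr4:95052223-95052372, minus strand: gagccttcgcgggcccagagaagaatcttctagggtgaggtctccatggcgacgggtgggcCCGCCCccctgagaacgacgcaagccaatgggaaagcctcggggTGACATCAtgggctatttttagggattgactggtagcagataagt
Klf6, chr13:5861339-5861488, plus strand: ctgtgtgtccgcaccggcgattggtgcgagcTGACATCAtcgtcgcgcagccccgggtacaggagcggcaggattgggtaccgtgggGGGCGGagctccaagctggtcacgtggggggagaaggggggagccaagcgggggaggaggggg

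In the Fos promoter, CRE half-sites began at bases -129 and -66 and the TATA box at -33, counted from the start site. The Jun and Klf6 stretches held neither a TGACG half-site nor TATAAA, and both held TGACATCA, at -45 in Jun and at -119 in Klf6. These letters were added to the search after the sequences were seen. Windows from 250 bases before to 50 after the start were found for 8 of the 10 members, and Egr1 and Ier2 are named only. On either strand, TGACATCA was in 2 of the 8 windows and in 3.62% of 32851 windows of all genes, and TGACG was in 5 of 8 and in 20.8%. GGGCGG was in 6 of 8 and 35.7%, and TATAAA in 2 of 8 and 13.6%. The full CRE TGACGTCA (1.79% of all windows), the AP-1 site TGACTCA or its reverse complement TGAGTCA (5.2%), the CArG box of SRF (1.63%) and the nuclear receptor half-site AGGTCA (16.3%) were in 0 of the 8. Bases outside these windows were not searched, so a site further upstream would be missed. The matches describe the letters of the windows and not the binding of a factor.

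Across the 10 genes, the loss of COUP-TFI went with small differences. Differences are log2 values of COUP-TFI-/- minus those of wild-type, with the standard error (SE) that limma gives for the means of the 4 pools with the set as a block. With GCRMA, 8 probe sets were higher and 7 lower in COUP-TFI-/-, with a median of 0.01 against 0.00 over all probe sets. With dChip, 5 were higher and 10 lower, with a median of -0.02 against -0.01. The number of probe sets past a Benjamini-Hochberg adjusted p of 0.05 was 0 of 15 in both normalizations, where 0.105% of all probe sets passed with GCRMA and 0.00805% with dChip. The methods' 2-way analysis of variance also gave 0 of 15 after this adjustment. At an unadjusted p under 0.05 limma gave 1 of 15 in each normalization, Klf6 with GCRMA (4.58% of all probe sets) and Jun with dChip (2.13%). Over the 15 probe sets the 95% confidence intervals reached from -0.44 to 0.52 with GCRMA and from -0.72 to 0.72 with dChip. With 2 pools per genotype, an exact permutation test within the 2 sets cannot give a 2-sided p below 0.5, so limma's p-values rest mostly on the variance shared by all probe sets.

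**Figure D1:**
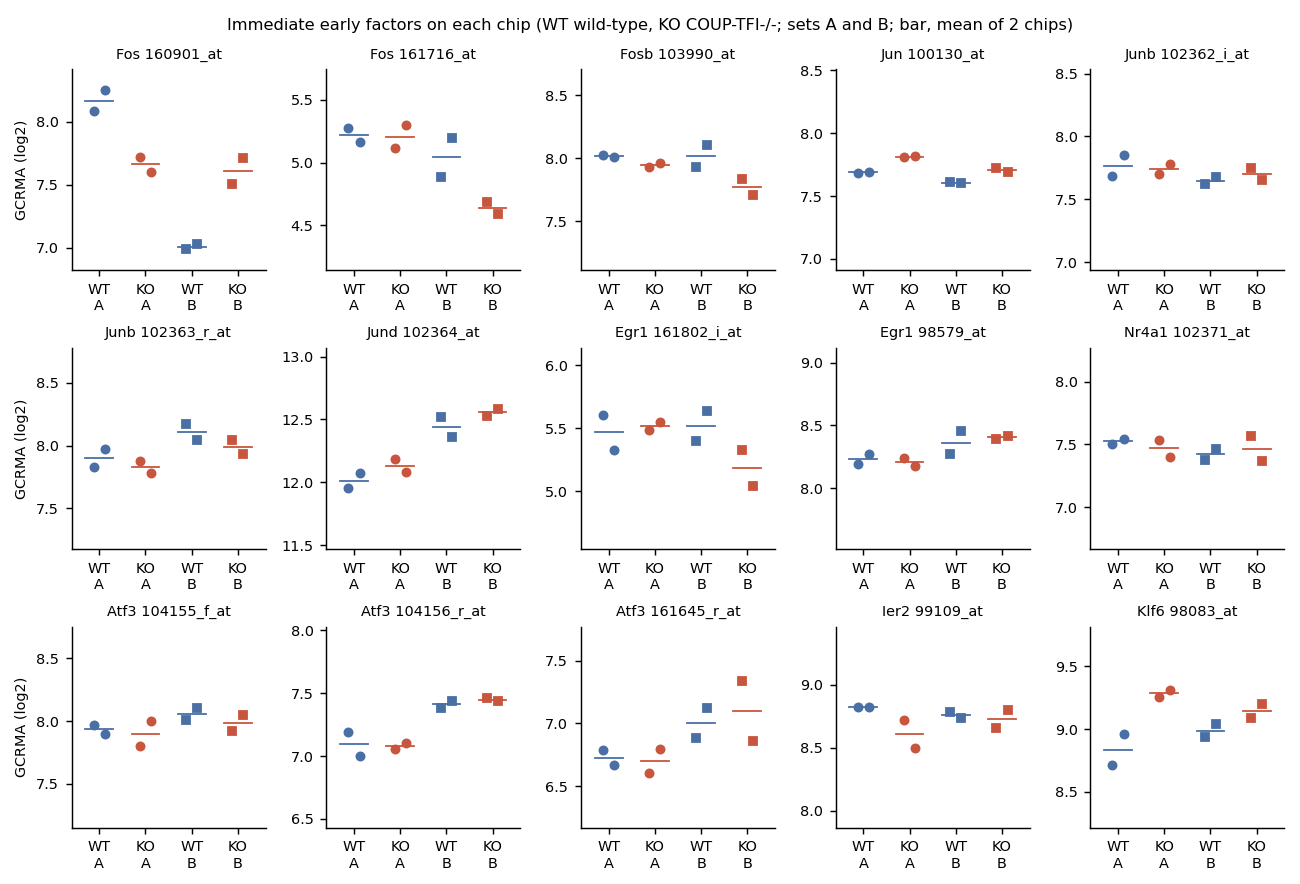
GCRMA values (log2, vertical axis, with the same span in each panel) of the 15 member probe sets on the 8 chips, with wild-type (WT, blue) and COUP-TFI-/- (KO, red) in sets A (circles) and B (squares), and a bar at the mean of each pair of duplicates. Fos 160901_at is lower in COUP-TFI-/- in set A and higher in set B, and the 4 COUP-TFI-/- chips of Klf6 lie above the 4 wild-type chips.

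Jun, Jund and Klf6 were the 3 genes that were higher in COUP-TFI-/- in both sets with both normalizations, where 11.5% of all probe sets were. Fosb and the second probe set of Fos were lower in both, where 10.4% were. Both COUP-TFI-/- chips lay above both wild-type chips of the same set, in each set, for Jun, Jund and Klf6 with GCRMA (3 of 15, against 4.6% of all probe sets) and for Jun with dChip (1 of 15, against 4.09%). No test was made of these counts against the background.

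Jun encodes the AP-1 subunit that can pair with itself or with Fos. On the GCRMA scale, the wild-type chips of set A read 7.68 and 7.70 and those of set B 7.61 and 7.60, and the COUP-TFI-/- chips of set A 7.81 and 7.82 and those of set B 7.72 and 7.69. The COUP-TFI-/- chips were thus higher within each set, while those of set B overlapped the wild-type chips of set A. The dChip intensities were 226, 243, 209 and 209 in wild-type and 267, 274, 262 and 259 in COUP-TFI-/-, in the order A1, A2, B1, B2, and all 4 COUP-TFI-/- chips lay above all 4 wild-type chips.

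The genotype difference of Jun was 0.13 (set A) and 0.10 (set B) with GCRMA, with a mean of 0.11 (SE 0.10, 95% interval -0.09 to 0.32), which is 1.08-fold. With dChip it was 0.21 and 0.32, with a mean of 0.26 (SE 0.10, 95% interval 0.00 to 0.52), or 1.20-fold. Neither passed the adjustment in limma. By contrast, Jun was the 1 member of 15 that met the thresholds of the methods' 2-way analysis of variance, which ask for p under 0.01 for genotype and over 0.01 for the interaction, and it did so in both normalizations, where 2.06% (GCRMA) and 2% (dChip) of all probe sets did. Jun is among the genes that the study selected from these same chips, so this count is no independent evidence. The paper then measured its leading hits by RT-PCR on unpooled ears, and there the change in Jun was not statistically significant. The paper calls Jun an indirect target of COUP-TF in vitro, and proposes that some real targets lay beyond the sensitivity of its RT-PCR. The duplicate chips of Jun differed by very little with GCRMA, with a standard deviation of 0.012, and 0.105% of all probe sets had a smaller one. With dChip it was 0.039, and 5.51% had a smaller one. That analysis of variance measures genotype against this spread, while 22.3% of all probe sets had a larger absolute GCRMA difference than Jun and 4.70% a larger dChip difference.

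Klf6, a zinc finger factor of the Krüppel-like family that is induced by injury, had the largest GCRMA difference among the 15 probe sets. The wild-type chips of set A read 8.72 and 8.96 and those of set B 8.94 and 9.04, and the COUP-TFI-/- chips of set A 9.25 and 9.31 and those of set B 9.09 and 9.20. All 4 COUP-TFI-/- chips lay above all 4 wild-type chips, and the gap was wider in set A (0.45) than in set B (0.16), a difference between the sets that did not pass the adjustment (limma adjusted p = 0.316). The mean difference was 0.30 (SE 0.10, 95% interval 0.09 to 0.52), or 1.23-fold, with a limma adjusted p of 0.717, and 1.51% of all probe sets had a larger one. The dChip intensities were 1479, 1550, 1434 and 1625 in wild-type and 1716, 1779, 1489 and 1701 in COUP-TFI-/-, and in set B the genotypes overlapped. The dChip difference was 0.13 (SE 0.11, 95% interval -0.13 to 0.40).

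Jund, a Jun family member that is present in many resting cells, gave the same GCRMA difference in both sets, 0.12 and 0.12, with a mean of 0.12 (SE 0.10). The wild-type chips of set A read 11.95 and 12.07 and those of set B 12.52 and 12.36, and the COUP-TFI-/- chips of set A 12.18 and 12.08 and those of set B 12.53 and 12.58. Within each set both COUP-TFI-/- chips read higher by a narrow margin, and the sets lay further apart than the genotypes. With dChip the differences were 0.09 and 0.23. The third Jun family gene, Junb, which encodes a subunit that often opposes Jun, was read by a pair of probe sets that differed from each other. The probe set 102362_i_at gave 0.01 (SE 0.10) and 102363_r_at gave -0.10 (SE 0.10) with GCRMA, and -0.03 and -0.08 with dChip. The suffixes _i, _r and _f are the marks of Affymetrix for probe sets with fewer or less specific probes.

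**Figure D2:**
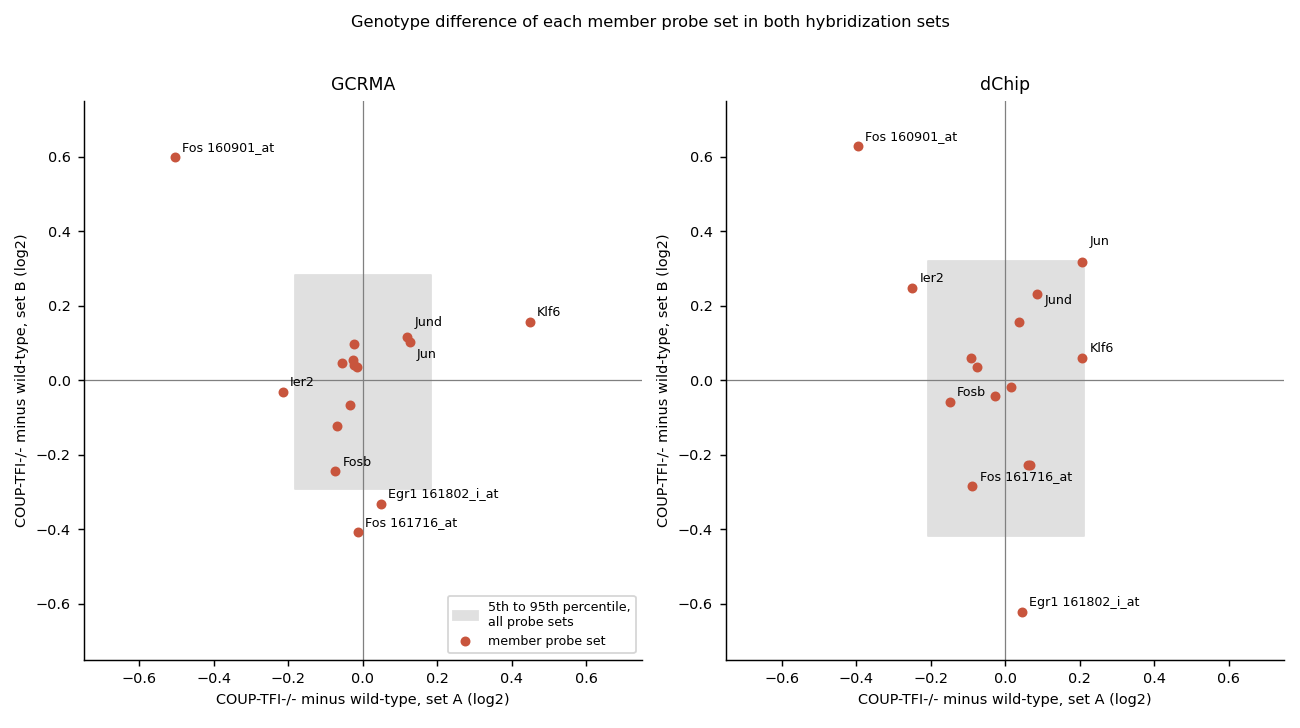
Genotype difference (COUP-TFI-/- minus wild-type, log2) in set A (horizontal axis) and in set B (vertical axis) for the 15 member probe sets (red points) with GCRMA and with dChip, over the range that holds the 5th to 95th percentile of all probe sets on each axis (grey). Fos 160901_at lies alone in the upper left corner of both panels, at -0.51 and 0.60 with GCRMA and at -0.39 and 0.63 with dChip.

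Fos, the founding member of the family and the partner of Jun in AP-1, had opposite genotype differences in the 2 sets. The wild-type chips of the main probe set, 160901_at, read 8.08 and 8.25 on the GCRMA scale where they belonged to set A, and 6.99 and 7.03 where they belonged to set B. The COUP-TFI-/- chips of set A read 7.72 and 7.60, and those of set B 7.50 and 7.71. The lowest 2 chips were those of the wild-type pool of set B and the highest 2 those of the wild-type pool of set A, with both COUP-TFI-/- pools between them. The dChip intensities showed the same order, with 484, 524, 232 and 213 in wild-type and 377, 390, 325 and 364 in COUP-TFI-/-.

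The genotype difference of Fos was -0.51 (set A) and 0.60 (set B). The mean difference of 0.05 (SE 0.17) hides these opposite values. The interaction of genotype and set was -1.11 (SE 0.14, limma adjusted p = 0.0027) with GCRMA and -1.02 (SE 0.13, limma adjusted p = 0.0216) with dChip. Fos 160901_at was the only one of the 15 probe sets past this test in each normalization, and 0.958% of all probe sets passed with GCRMA and 0.459% with dChip. Only 12 probe sets (0.0966%) with GCRMA and 134 (1.08%) with dChip had a larger absolute interaction than Fos. This test compares single pools with the spread of duplicate chips, so it does not include the spread between pools. With dChip the call was lost when any 1 of 5 chips was left out, wild-type A2, B1 or B2 or COUP-TFI-/- A1 or A2, at limma adjusted p of up to 0.102, and the adjusted p from the methods' 2-way analysis of variance was 0.194 with GCRMA and 0.126 with dChip. The difference ran the same way without any 1 chip, as it had to with the genotypes separated within each set.

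The other Fos probe set, 161716_at, did not share this pattern. It read 5.28, 5.16, 4.89 and 5.20 on the wild-type chips A1, A2, B1 and B2 and 5.12, 5.30, 4.69 and 4.59 on the COUP-TFI-/- chips. The differences were -0.01 (set A) and -0.41 (set B), with a mean of -0.21 (SE 0.11), and the interaction was 0.39 with a limma adjusted p of 0.238. The 2 probe sets of Fos thus disagreed in sign in set B. The second reads near the low end of the chip, with dChip intensities of 57.4 to 86.1, and 14.1% (GCRMA) and 11.3% (dChip) of all probe sets had a lower mean, against 58.6% and 55.1% for 160901_at.

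The study's methods use this interaction to screen out genes whose difference may come from tissue taken along at dissection, and striated muscle markers moved with Fos in set B. The dChip intensities of the 16 muscle markers on the chip, of 16 listed, summed to 26505 and 26368 on the wild-type chips of set A and to 17609.8 and 17484 on those of set B. On the COUP-TFI-/- chips of set A the sums were 25787 and 24882, and on those of set B 29649 and 31551. In set A the muscle sum hardly differed between the genotypes while Fos did. The COUP-TFI-/- pool of set B was highest for muscle and not for Fos. The wild-type pool of set B was the lowest for both Fos and the muscle sum. Of the 16 muscle markers, 10 passed the interaction test with GCRMA, the median difference was 0.00 (set A) and 0.90 (set B), and 1 had a mean dChip intensity under 50. That pool was also lowest for the dChip sums of endothelium (3625 and 3655) and Schwann cell markers (3988 and 4094). For erythroid markers its chips (16500 and 17014) overlapped those of COUP-TFI-/- in set B (16983 and 17461). It was not lowest for inner ear, neuronal, macrophage and neutrophil, cartilage and bone, or fat markers. Xist, the RNA of the inactive X chromosome in females, was looked up after its values were seen. It read 6.59 and 6.58 on the wild-type chips of set B and 7.23 and 7.49 on the COUP-TFI-/- chips of that set, and in set A 8.44 and 8.62 in wild-type and 8.97 and 8.61 in COUP-TFI-/- (GCRMA). The wild-type pool of set B was thus the lowest for Xist as well, and the genotype difference over both sets was 0.52. Eif2s3y, a gene on the Y chromosome, was also lowest in that pool. Centred on its own mean, it read 0.35 (A) and -0.57 (B) in wild-type and 0.22 and 0.003 in COUP-TFI-/- (GCRMA). It is named because it is among the genes nearest to Fos, given below, so its likeness to Fos was selected for. The part of these tissues and of the sex of the pups in the Fos values was not tested. None of the 15 members other than Fos 160901_at passed the interaction test, and neither did any of the genes on the 4 lists of other early-response genes below.

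**Figure D3:**
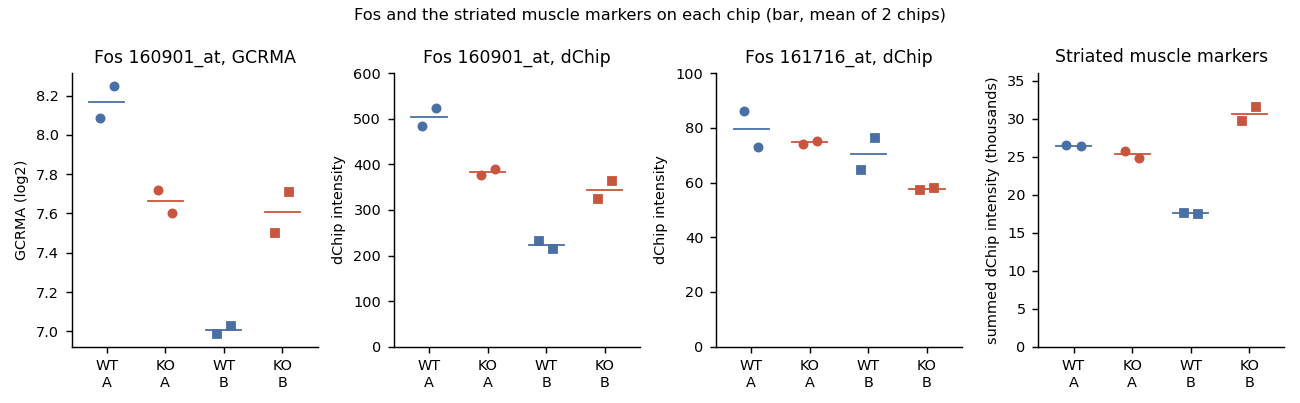
Fos 160901_at (GCRMA, log2, and dChip intensity), Fos 161716_at (dChip intensity) and the summed dChip intensity of 16 striated muscle markers on the 8 chips, by genotype (WT wild-type, KO COUP-TFI-/-) and set, with a bar at the mean of each pair. The wild-type pool of set B is the lowest for Fos 160901_at and for the muscle markers, and the COUP-TFI-/- pool of set B is the highest for muscle while it lies between the wild-type pools for Fos.

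Fosb, a Fos relative whose longest form is a strong activator, was lower in COUP-TFI-/- in both sets, with differences of -0.07 and -0.24 (GCRMA) and -0.15 and -0.06 (dChip). The wild-type chips read 8.03, 8.01, 7.93 and 8.11 and the COUP-TFI-/- chips 7.93, 7.96, 7.83 and 7.71 with GCRMA. Within each set the genotypes were separated with GCRMA, and with dChip they overlapped. The mean of -0.16 (SE 0.10, 95% interval -0.37 to 0.05) did not pass the test.

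Atf3, a bZIP repressor induced by many kinds of stress, was read by 3 probe sets with GCRMA differences of -0.05, 0.01 and 0.04, each with an SE of 0.10. In all 3 the wild-type and COUP-TFI-/- chips of a set overlapped with GCRMA. With dChip, COUP-TFI-/- lay below wild-type for 104155_f_at in set A (226 and 235 against 242 and 244). The same held for 104156_r_at in set B (191 and 191 against 219 and 230). Egr1, a zinc finger factor that follows growth factor and neuronal signals, gave 0.01 (SE 0.10) in probe set 98579_at, with -0.02 (set A) and 0.04 (set B). Its other probe set, 161802_i_at, read 5.33 to 5.64 on the wild-type chips and 5.04 to 5.55 on the COUP-TFI-/- chips, with a difference of -0.14 (SE 0.11), and its dChip differences of 0.05 (set A) and -0.62 (set B) had a limma interaction adjusted p of 0.143. Nr4a1, an orphan nuclear receptor that is itself an immediate early gene, gave 0.00 (SE 0.10) with GCRMA and 0.10 (SE 0.10) with dChip, and its genotypes overlapped in both sets. The 95% GCRMA intervals reached from -0.19 to 0.21 for Egr1 98579_at and from -0.21 to 0.20 for Nr4a1.

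Ier2, a small nuclear protein of the early response, differed between the normalizations. With GCRMA it was lower in COUP-TFI-/- in both sets, by -0.21 and -0.03. With dChip the differences were -0.25 (set A) and 0.25 (set B), opposite as those of Fos, with intensities of 441, 447, 342 and 291 in wild-type and 401, 348, 333 and 420 in COUP-TFI-/-. Their interaction of -0.50 did not pass the adjustment (limma adjusted p = 0.183), and in set B one COUP-TFI-/- chip lay within the range of the wild-type chips.

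The 2 hybridization sets differed more than the genotypes for several members. With GCRMA the median absolute difference over all probe sets was 0.16 between the sets and 0.06 between the genotypes. Values are given as set A minus set B, from limma on the 4 pool means with genotype as a block. Both Fos probe sets were higher in set A with GCRMA, by 0.61 (SE 0.17, adjusted p = 0.016) and 0.37 (SE 0.11, adjusted p = 0.019), which is 2 of 15 against 13.6% of all probe sets. For 160901_at that difference lay in the wild-type pools, at 1.16, and was 0.06 in the COUP-TFI-/- pools. For 161716_at it was instead larger in the COUP-TFI-/- pools, at 0.57, than in the wild-type pools, at 0.18.

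Jund was higher in set B, with a set difference of -0.43 (SE 0.10, adjusted p = 0.0041) and nearly equal values in wild-type (-0.43) and COUP-TFI-/- (-0.42). So were the Atf3 probe sets 104156_r_at (-0.34, adjusted p = 0.016) and 161645_r_at (-0.33, adjusted p = 0.019), while Atf3 104155_f_at gave -0.10. These are 3 of 15 against 12.2% of all probe sets. With dChip, 0 of 15 were higher in set A by this test (6.76% of all probe sets), with Fos 160901_at at 0.67 (SE 0.24, adjusted p = 0.123), and 1 of 15 was higher in set B (4.9%). That 1 was Nr4a1, at -0.50 (SE 0.10, adjusted p = 0.041), with intensities of 1004 and 1052 on the wild-type chips of set A and 1279 and 1521 on those of set B, and of 1083 and 1030 and 1455 and 1662 on the COUP-TFI-/- chips. With GCRMA its set difference was 0.06, so the normalizations disagreed for Nr4a1.

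The calls between sets depended on single chips and on the normalization and, for Fos, also on the model. None of the 5 GCRMA calls was also made in the main dChip test. There Jund gave -0.41 (limma adjusted p = 0.0646), Atf3 104156_r_at -0.47 (limma adjusted p = 0.0625) and Atf3 161645_r_at -0.36 (limma adjusted p = 0.0760). With genotype left out of the model, the GCRMA calls of both Fos probe sets were lost, at limma adjusted p of 0.0942 (160901_at) and 0.0830 (161716_at), and after quantile normalization that of 160901_at was lost, at 0.0842. Of the 5 GCRMA calls, that of Jund was the only one that held without any 1 chip, at adjusted p of up to 0.0273. The call of Fos 160901_at was lost without wild-type A2 or B1 or COUP-TFI-/- A1, that of Fos 161716_at without wild-type B1 or COUP-TFI-/- A1, that of Atf3 104156_r_at without wild-type A2 or COUP-TFI-/- A1, and that of Atf3 161645_r_at without any of 4 chips. The dChip call of Nr4a1 was lost without any of 3 chips. Other tissue markers also differed between the sets. By the GCRMA set test, 6 of 10 inner ear markers were higher in set A and 1 in set B. Of 6 cartilage and bone markers, 3 were higher in set B and 1 in set A. Neuronal (8 of 11), fat (4 of 5) and striated muscle markers (4 of 16) had calls for set A only. So had erythroid (2 of 6), endothelium (2 of 8) and Schwann cell markers (1 of 4). Of 12 macrophage and neutrophil markers, 1 was higher in set A and 1 in set B. Xist, given above, was 1.69 higher in set A. The part of tissue and sex in the set differences of the members was not tested.

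**Figure D4:**
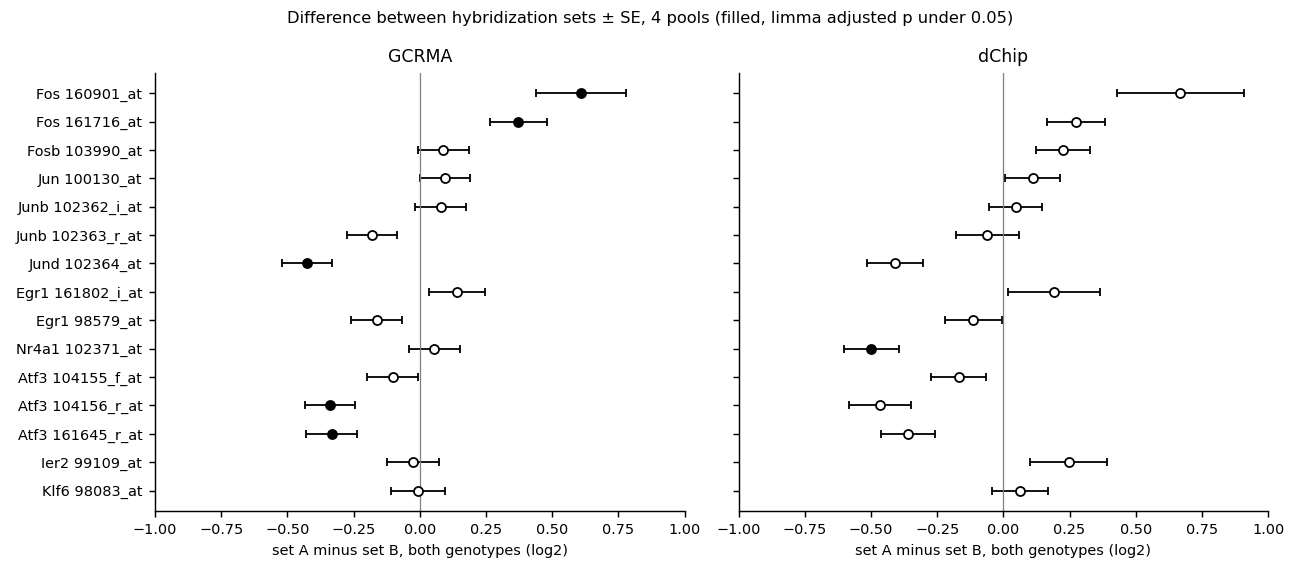
Difference between the sets (set A minus set B, log2, horizontal axis) of the 15 member probe sets, with the SE from 4 pool means, for GCRMA and dChip. Filled points passed a limma adjusted p of 0.05, which were 5 probe sets with GCRMA (2 of Fos, Jund and 2 of Atf3) and Nr4a1 with dChip.

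The other genes of the early response were taken from 4 lists, each gene by the probe set that read highest on average with GCRMA. For these genes the backgrounds over all probe sets are those given above, namely 4.58% (GCRMA) and 2.13% (dChip) at an unadjusted p under 0.05 between the genotypes, and 13.6% higher in set A and 12.2% higher in set B by the adjusted GCRMA set test. No list was tested as a whole. Of 22 other AP-1 and related bZIP factors 18 were found on the chip, and 0 passed the genotype test in limma in either normalization, with 3 (GCRMA) and 2 (dChip) at an unadjusted p under 0.05. Of these, 10 were higher in COUP-TFI-/- with GCRMA, with a median of 0.03. The largest with GCRMA was that of Cebpd, a bZIP activator of acute-phase genes, with wild-type pools at 8.97 (A) and 8.88 (B) and COUP-TFI-/- pools at 9.34 and 9.85. Its difference of 0.67 (SE 0.12, limma adjusted p = 0.0552) did not pass. With dChip it was 0.78 (SE 0.15, limma adjusted p = 0.9999), which did not pass either. Maff, a small Maf protein, gave 0.22 and Cebpb 0.21. For Fosl2, another gene of the Fos family, GCRMA gave -0.04 and dChip -0.67. Between the sets, 1 of the 18 was higher in set A with GCRMA, Atf2 by 0.62. In set B 5 were higher, among them Atf4 (-0.44), Maff (-0.44) and Fosl2 (-0.29, limma adjusted p = 0.042). With dChip, Fosl2 was instead 1.39 higher in set A (limma adjusted p = 0.0060), so the normalizations disagreed for it.

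Of 27 other immediate early transcription regulators 20 are on the chip, and again 0 passed, with 3 and 1 at an unadjusted p under 0.05. With GCRMA 12 were higher, with a median of 0.04. Per1, a clock gene that also answers acute stimuli, gave 0.41 (SE 0.10, adjusted p = 0.287), Myc 0.27 and Klf9 0.26. Between the sets, 3 were higher in set A and 4 in set B. Of these, Klf9 was 0.67 higher in set A and Snai1, a repressor of epithelial genes, had a set difference of -0.65.

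Of 49 other immediate early products, such as phosphatases, secreted matrix proteins and cytokines, 40 were found on the chip and 0 passed the genotype test. At an unadjusted p under 0.05 there were 11 of 40 with GCRMA and 5 of 40 with dChip, against 4.58% and 2.13% of all probe sets. With GCRMA 25 were higher and the median was 0.06, while with dChip 17 were higher and the median was -0.02. The sign of the list's median thus turned with the normalization. The largest GCRMA differences were those of Ccn1 and Ccn2, secreted matrix proteins, and Nfkbia, the inhibitor of NF-kappa-B. The wild-type pools of Ccn1 read 7.49 (A) and 8.30 (B) and the COUP-TFI-/- pools 8.04 and 8.62, a difference of 0.44 (SE 0.10, limma adjusted p = 0.222) with GCRMA and of 0.48 with dChip. Ccn2 gave 0.40 and Nfkbia 0.39 with GCRMA, at adjusted p of 0.427 and 0.323. With dChip, Ccn1 was followed by Sgk1 (0.40), a kinase induced by glucocorticoids and serum, Nfkbia (0.32), the phosphatase gene Dusp1 (0.31) and Zfp36l1 (0.30), and Ccn2 gave 0.27. Rgs2, a brake on G-protein signals, had the smallest GCRMA p of the list between the sets, with a set difference of 0.75 and -0.05 between the genotypes.

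Of 44 upstream kinases and factors 32 are on the chip, 0 passed, and 1 (GCRMA) and 0 (dChip) had an unadjusted p under 0.05. With GCRMA 15 were higher, with a median of -0.02. The largest GCRMA differences were those of Mknk2 (0.24), a kinase downstream of the MAP kinases, Prkaca (0.17), the catalytic subunit of protein kinase A, and Map2k6 (-0.17). Map3k1 was 0.69 higher in set A.

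Macrophage and neutrophil markers also read higher in COUP-TFI-/-, 11 of 12 with GCRMA with a median of 0.16 and 0 past the test. Their dChip sums were 5094 to 5505 on the wild-type and 5513 to 6434 on the COUP-TFI-/- chips, and striated muscle markers were higher for 15 of 16, with 2 past the test. Neuronal markers were lower for 10 of 11, with 1 past the test (Fabp7, -0.58, limma adjusted p = 0.0389), fat markers for 4 of 5, with 1 past the test (Ucp1, -1.26, limma adjusted p = 0.000258), and inner ear markers for 8 of 10, with 0 past the test. The part of these cells in the values of the members and of the lists was not tested.

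**Figure D5:**
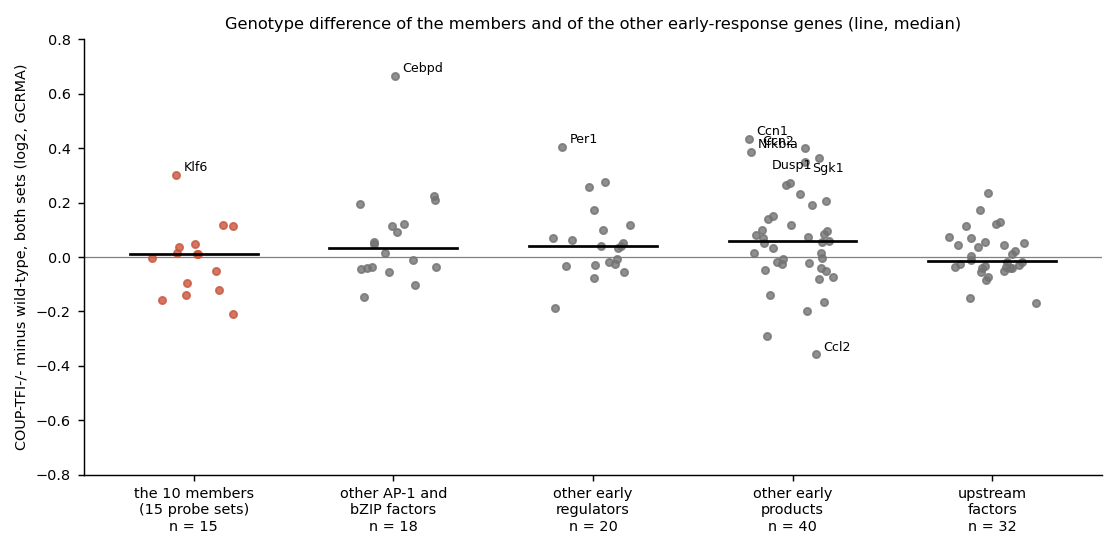
GCRMA genotype difference (COUP-TFI-/- minus wild-type over both sets, log2, vertical axis) of the 15 member probe sets and of the genes of 4 other early-response lists, with a line at the median of each. The member medians and the list medians lie between -0.02 and 0.06, and Cebpd, at 0.67, lies highest.

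The genes whose GCRMA values over the 4 pools lay closest to those of Fos and Jun, each centred on its own mean, were found among 8251 genes. For Fos 160901_at these were Noct, Eif2s3y, Srp19, Cd1d1 and Faap20, at a root mean square distance of 0.13 to 0.16 log2 units, while Fos itself varied with a standard deviation of 0.41 over the pools. Of the other members, Nr4a1 was the nearest to Fos, at rank 2161, and Jun followed at rank 2463. Noct belongs to the deadenylase family, and Eif2s3y is a translation factor gene on the Y chromosome. Noct, Eif2s3y and Faap20 are read by probe sets of the _f kind, as is Otud7b among those nearest to Jun. For Jun, which varied by only 0.07, the nearest were Rpap1, Otud7b, Scaf8, Krtap6-2 and Ptgfr, at 0.010 to 0.012, and among the members Nr4a1, at rank 968. With 4 pools these distances are a description.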

How the data were processed

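Chips were grouped by the genotype, set and duplicate number in their labels. Per the labels, the authors deposited each of the 8 chips as GCRMA values on the log2 scale and as dChip model-based intensities on a linear scale. Background correction and summarization are theirs, and their software versions are not given in the sources used here. Without the 66 Affymetrix controls among 12488 probe sets, 12422 were tested with GCRMA and 12421 with dChip, where intensities under 1 were set to 1 before log2 (0 values of the members). Genes were named from the platform annotation. Of the 12422, 10833 have 1 symbol, 396 several and 1193 none.

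In R 4.3.3, limma 3.58.1 (with statmod 1.5.0) was fitted to the 4 pool means with the set as a block, or with genotype as a block for the set difference, with Benjamini-Hochberg adjustment over all probe sets. The residual degrees of freedom are 1, and the prior adds 14.3 (GCRMA) or 4.55 (dChip), a number that is poorly determined at 1 residual degree of freedom. The interaction was fitted to the 8 chips. Across probe sets, the set differences of the 2 genotypes correlated at r = 0.752 and 0.688, so the sets pair the pools, as the methods state. The script was tested on simulated data. The arrays give no counts, and the number of pools limits the precision.

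All member probe sets are named, with Nr2f1, the listed genes past a test or with the largest differences (not all are described), and the 5 genes nearest to Fos and to Jun. The members and lists were chosen with earlier results of these data known.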

Additional observations from a re-analysis of the deposited data

Results flagged for a closer look

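The genotype difference of Fos 160901_at differed between the hybridization sets by a test of the interaction itself. The difference in set A minus that in set B was -1.11 log2 units with GCRMA (limma adjusted p = 0.0027) and -1.02 with dChip (limma adjusted p = 0.0216). Both values rest on 1 pool per genotype and set. No group of 4 chips of a member had a chip apart from the others by Dixon's criterion. That criterion looks for 1 chip apart, so it cannot find pairs of duplicates that lie apart, as in the wild-type chips of Fos 160901_at.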

How the results depend on the processing

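Without the replicate block (the set left out of the model, so that pools are not paired), 0 of all probe sets passed the genotype test in either normalization, and none of the other settings gave a genotype call for a member (0 of 15 in each of 14 GCRMA and 15 dChip alternatives). Over all probe sets, 13 passed with GCRMA, and 1 with the methods' 2-way analysis of variance, 27 with the pool as a random block, 2 after quantile normalization and 1 to 54 without 1 chip. With dChip 1 passed, and 5 with the random block, 4 with the filter on low values, 3 after quantile normalization, 4 with an intensity trend, 0 with values under 16 set to 16 and 1 to 5 without 1 chip. The cause was not tested.

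The interaction was passed by 119 probe sets with GCRMA and by 57 with dChip. At the same adjusted p, the analysis of variance gave 5 and 0, and among the members 0 and 0 in place of 1 and 1. Quantile normalization gave 135 with dChip. Without 1 chip the counts were 23 to 237 with GCRMA, and 0 to 131 with dChip, with 0 to 1 among the members. The Fos interaction ranged from -1.21 to -1.002 (GCRMA) and from -1.11 to -0.94 (dChip) without 1 chip.

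Between the sets, 5 members passed with GCRMA and 1 with dChip. Leaving genotype out gave 3 (without both Fos probe sets) and 3, quantile normalization 4 with GCRMA (without Fos 160901_at) and 3 with dChip and the filter on low values 5 with dChip (Fos 160901_at, Jund, Nr4a1 and the same 2 probe sets of Atf3). Without 1 chip there were 1 to 5 (GCRMA) and 0 to 3 (dChip). Over all probe sets 3205 (GCRMA) and 1449 (dChip) passed. With dChip it was 2491 without genotype, 2326 after quantile normalization, 2573 with the filter and 570.0 to 2293 without 1 chip, and with GCRMA 2046 to 3309.

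Small differences changed sign. After quantile normalization the genotype difference was -0.0029 for Egr1 98579_at (GCRMA), 0.0078 for Atf3 161645_r_at and 0.0076 for Ier2 (dChip). Without 1 chip the GCRMA genotype difference ranged from -0.0044 to 0.10 for Fos 160901_at, -0.028 to 0.054 for Junb 102362_i_at, -0.037 to 0.056 for Egr1 98579_at, -0.054 to 0.045 for Nr4a1, -0.037 to 0.058 for Atf3 104156_r_at and -0.082 to 0.15 for Atf3 161645_r_at. With dChip it ranged from -0.085 to 0.017 for Junb 102362_i_at, -0.047 to 0.017 for Egr1 98579_at, -0.045 to 0.0050 for Atf3 104155_f_at, -0.088 to 0.086 for Atf3 161645_r_at and -0.083 to 0.083 for Ier2. The set difference ranged from -0.081 to 0.028 for Ier2 and -0.066 to 0.054 for Klf6 (GCRMA) and from -0.0051 to 0.10 for Junb 102362_i_at (dChip). The genotype differences of Jun, Jund and Klf6 stayed positive under every alternative, at 0.11 to 0.12, 0.08 to 0.16 and 0.24 to 0.36 (GCRMA) without 1 chip. With GCRMA, both COUP-TFI-/- chips of these genes lay above both wild-type chips of their set, so leaving out 1 chip could not turn the sign. Leaving out the set, the analysis of variance and the random block gave the same difference as the main fit. This stability is thus no further evidence of a difference.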
